A study of Mus musculus with 12 samples.

Results

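The genes described here were 10 receptors of the Eph family, chosen by their gene symbols from the 55336 genes of the count matrices: Epha3, Epha4, Epha5, Epha6, Epha7, Epha8, Epha10, Ephb1, Ephb2 and Ephb6. They were measured by single-nucleus RNA sequencing in the cortex of 12 mice at P21, 21 days after birth. The mice came from the MYT1L S710fsX line, which carries a frameshift in Myt1l, a zinc finger transcription factor of neurons. Wild type (WT) mice and heterozygotes (Het), which the study says were generally littermates, were compared, with 3 males and 3 females of each genotype. Per the study's methods, every pup, WT pups included, had received an intraventricular injection of AAV9 carrying a tdTomato construct and the hyPB transposase around birth, and the cortices came from 4 litters. The labels do not tie an animal to its litter, so a litter could not be entered in a fit. The mutation is constitutive, so every cell of a Het animal carries it.

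Eph receptors are the largest family of receptor tyrosine kinases. EphA receptors bind mainly the ephrin-A ligands, which are anchored in the membrane by a lipid, and EphB receptors bind mainly the transmembrane ephrin-B ligands, while Epha4 binds members of both classes. Signals run forward into the cell with the receptor and in reverse into the cell with the ephrin, and contact usually repels a growth cone. In the forebrain the family sorts axons into topographic maps, sets area and layer borders, and later acts on dendritic spines and synaptic receptors. Epha10 and Ephb6 lack an active kinase and signal through the receptors they pair with.

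Levels are given as CPM, the UMIs (unique molecular identifiers, which count molecules) of a gene as counts per 1e6 UMIs summed over the nuclei of a class in an animal. A value holds for a class of an animal with at least 10 nuclei. Nuclei are sampled with their unspliced RNA, and a CPM depends on gene length, so levels are compared between classes for the same gene and never between genes. The 10 genes span 15.0 kb (Ephb6, chromosome 6 of mm10 from 41605482 to 41620509) to 952 kb (Epha6, chromosome 16 from 59653483 to 60605531).

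Of 33118 nuclei kept, 21660 were excitatory, 7798 inhibitory and 3169 non-neuronal, and 20 classes were gated on marker genes that include no Eph receptor or ephrin. Marker lists for layer 5 extratelencephalic (L5 ET), layer 6b (L6b) and endothelial cells were also scored but gave no class. Nuclei of those types may therefore lie within other classes or in none. The 12 animals gave 1551 to 4412 nuclei and 5065015 to 14015981 UMIs each after filtering, and no barcode was shared between animals. Over the 6000 genes with a mean of at least 20 CPM each library correlated at 0.988 to 0.994 with the mean of the others. Myt1l itself was at 830 to 947 CPM in WT and 928 to 1009 CPM in Het animals over all nuclei. Counts over the gene do not separate the frameshifted transcript from the intact one, so they check no genotype label.

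Classes were gated on these same marker lists, so high levels of a class's own markers follow from the gate and do not test its identity. Among all 20 classes the own markers were highest for 7 of 7 in striatal projection-like, 7 of 7 in oligodendrocyte-like and 8 of 8 in microglia-like nuclei. In L4/5 IT-like, DG-like and CA1-ProS-like nuclei only 2 of 5 each were highest among all classes, and 5 of 5 among excitatory classes. Corticothalamic layer 6-like (L6 CT-like) nuclei had 4 of 5 markers at the highest level among excitatory classes. Classes that their lists set apart less clearly are called by the gate or by a leading gene. They are the L2/3 IT-gated nuclei (1 of 5 markers highest among excitatory classes), the Il1rapl2-high excitatory nuclei gated on the L5 IT list (2 of 4) and the Cnr1-high inhibitory nuclei gated on the Sncg list (2 of 5, with Sncg itself at 0). Excitatory nuclei gated on the L6 IT list are called Zfp804b-high. Microglia-like nuclei carried the oligodendrocyte list at 2977 CPM, nearly the level of their own list at 3198 CPM. In oligodendrocyte-like nuclei the oligodendrocyte list was at 23819 CPM. An Eph value in the microglia-like class was therefore read beside these levels.

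The region upstream of Ephb1 and of Ephb2 is shown because Ephb2 gave the single call between genotypes and Ephb1 the largest positive difference among the class tests. Each is the 250 bases before the RefSeq transcription start (assembly GRCm38.p6, the sequence of mm10), read 5′ to 3′ on the minus strand that holds the gene, and capitals mark AAAGTTT, the core bound by zinc fingers of the Myt1 family.
Ephb1, chr9:102354694-102354943: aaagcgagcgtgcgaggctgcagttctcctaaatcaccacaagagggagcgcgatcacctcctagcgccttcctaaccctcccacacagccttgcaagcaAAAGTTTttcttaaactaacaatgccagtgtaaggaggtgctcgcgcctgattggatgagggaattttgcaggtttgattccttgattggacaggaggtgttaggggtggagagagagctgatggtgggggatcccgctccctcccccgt
Ephb2, chr4:136836013-136836262: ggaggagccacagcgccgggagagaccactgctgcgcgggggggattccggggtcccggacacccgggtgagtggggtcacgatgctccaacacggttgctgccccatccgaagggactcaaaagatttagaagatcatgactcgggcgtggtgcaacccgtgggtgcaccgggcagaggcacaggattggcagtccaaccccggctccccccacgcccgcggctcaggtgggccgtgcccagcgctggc
AAAGTTT was searched on both strands, and of the windows of the 10 receptors (Epha7 has 2) only that of Ephb1 held it. It occurs in 1379 of 32851 windows of that length, or 4.20%. A match is a run of letters and does not show binding, and no match in this window says nothing about sites elsewhere in the gene.

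The first question was in which cells each receptor is transcribed. Each class was tested against the summed other classes of its own group (excitatory, inhibitory or non-neuronal) with edgeR's quasi-likelihood test and the animal as a block. A call needed a Benjamini-Hochberg adjusted p under 0.05 over all genes tested and an absolute log2 fold change over 0.2. Of 155 receptor and class combinations that passed the filter on low counts, from 9 receptors, 46 were called higher (29.7%) and 70 lower (45.2%). The background over all genes was 16.5% called higher and 17.8% called lower. Epha8 passed the filter in no class.

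Classes were also put in order of the mean CPM for each gene, and neighbours in the order were compared within animals by an exact sign-flip permutation test on log2(CPM + 5), two-sided. Of 190 neighbouring pairs 36 had p under 0.05, and 14 had an adjusted p under 0.05 over the 190. The smallest p that 12 animals allow is 0.000488. Neighbours are by construction the classes closest in mean, so a p over 0.05 between them does not show equal levels.

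**Figure D1:**
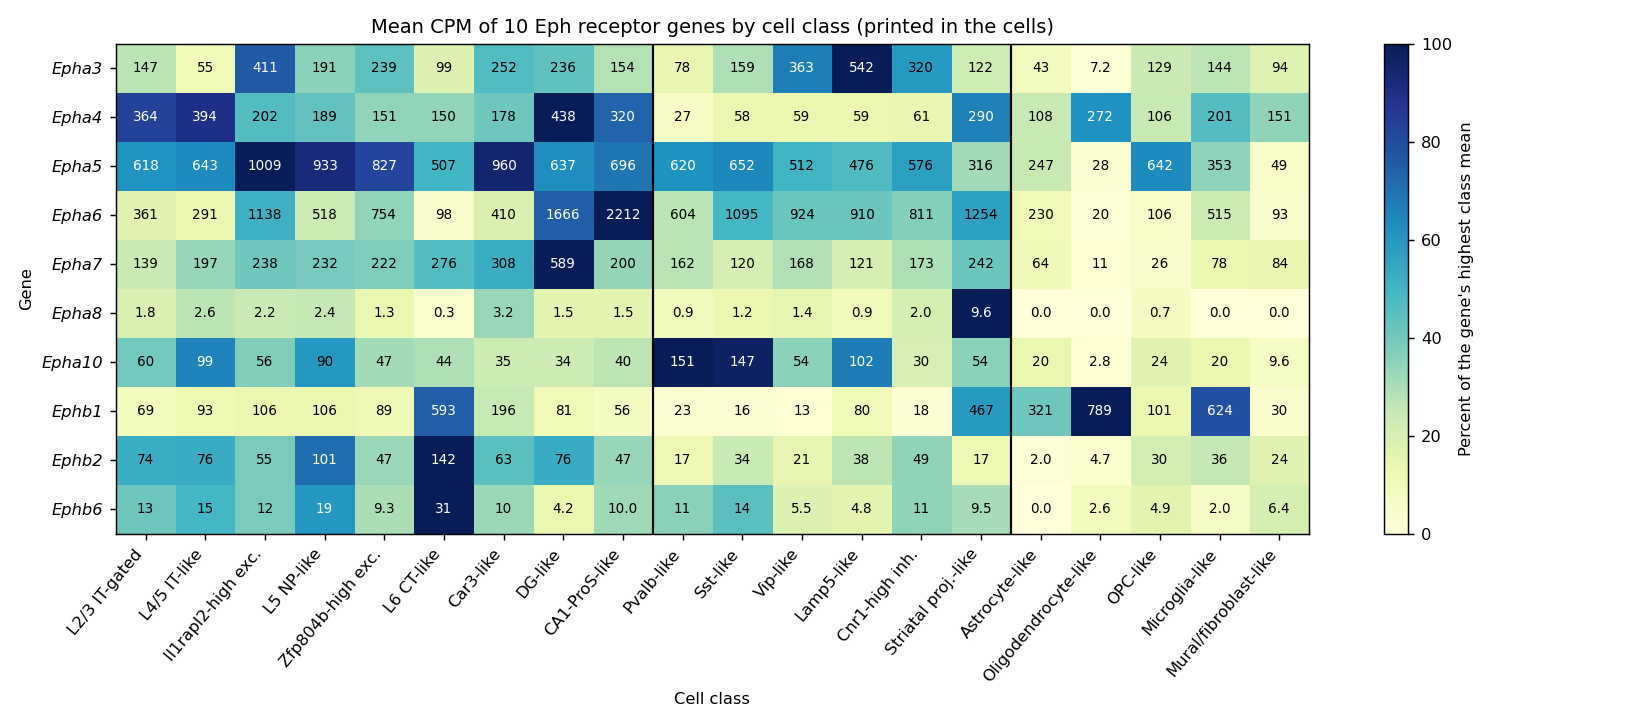
Mean CPM over animals (printed in each cell) of the 10 Eph receptor genes (y axis) in 20 cell classes (x axis), with colour as the percent of that gene's highest class mean. Vertical lines part excitatory, inhibitory and non-neuronal classes; Ephb1 is darkest in oligodendrocyte-like, microglia-like, L6 CT-like and striatal projection-like nuclei, while Epha3, Epha5, Epha6, Epha7 and Epha10 are lowest in oligodendrocyte-like nuclei.

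Epha3, an EphA receptor with a role in retinal axon mapping, was highest in Lamp5-like nuclei, an interneuron class that includes neurogliaform cells. There it reached 542 CPM ± 111 (SD, n = 12), with animals from 364 to 710 and a median of 526.4. Against other inhibitory classes its log2 fold change was 1.82 (SE 0.07, edgeR adjusted p = 3.54e-27). Il1rapl2-high excitatory nuclei came next at 411 ± 109 CPM (exact p = 0.0322 against Lamp5-like nuclei, adjusted p = 0.186). Within inhibitory nuclei it was high in Lamp5-like and Vip-like nuclei (363 ± 93.5 CPM) and low in Pvalb-like nuclei (77.8 ± 20.7 CPM, log2 fold change −1.66). Within excitatory nuclei L4/5 IT-like nuclei were lowest at 55.4 ± 21.2 CPM (log2 fold change −1.62), and oligodendrocyte-like nuclei were lowest of all at 7.21 ± 3.75 CPM.

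Epha4, the receptor that binds both ephrin classes, was highest in dentate gyrus-like (DG-like) nuclei. These were at 438 ± 70.2 CPM (n = 12), from 328 to 538 with a median of 439. L4/5 IT-like nuclei followed at 394 ± 43.5 CPM (exact p = 0.0933, adjusted p = 0.387, not separated). L2/3 IT-gated nuclei stood at 364 ± 36.7 CPM. Both of these gates were called higher, with log2 fold changes of 0.72 and 0.57 against other excitatory classes, and L6 CT-like nuclei were called lower (150.1 ± 18.7 CPM, log2 fold change −1.01). Among inhibitory classes the striatal projection-like nuclei held 290.4 ± 58.0 CPM (log2 fold change 2.69, SE 0.09, edgeR adjusted p = 3.10e-24). The interneuron classes lay between 27.3 ± 12.1 CPM in Pvalb-like nuclei and 61.3 ± 30.1 CPM in Cnr1-high nuclei. Oligodendrocyte-like nuclei carried Epha4 at 272 ± 74.1 CPM.

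Epha5, a receptor of thalamic and cortical axons, was spread widely over neurons. Il1rapl2-high excitatory nuclei led at 1009 ± 221 CPM (n = 12), with animals from 693 to 1380 and a median of 968. Car3-like nuclei came next (960.5 ± 229 CPM, exact p = 0.555, adjusted p = 0.957), and L5 NP-like nuclei (933 ± 79.7 CPM) did not differ from Car3-like nuclei beyond the spread over animals (exact p = 0.901). L6 CT-like nuclei, at 507 ± 26.8 CPM (log2 fold change −0.48), and striatal projection-like nuclei, at 316 ± 46.9 CPM (−0.77), were called lower than the rest of their groups. Among non-neuronal classes the oligodendrocyte lineage was split. Oligodendrocyte precursor-like (OPC-like) nuclei held 642 ± 331 CPM (log2 fold change 2.54, SE 0.15, edgeR adjusted p = 5.94e-12), while oligodendrocyte-like nuclei held 27.9 ± 13.7 CPM (−3.72).

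Epha6, an EphA receptor with a gene of unusual length, was highest in CA1-ProS-like nuclei, the gate for hippocampal CA1 and prosubiculum neurons. In those nuclei the gate's own list was at 536 CPM, with a median of 1 UMI, below the astrocyte list at 721 CPM. The name is therefore that of the gate. Epha6 was there at 2212 ± 516 CPM (n = 12), from 1573 to 2884 with a median of 2090. DG-like nuclei followed at 1666 ± 193 CPM (exact p = 0.00244, adjusted p = 0.0428), and striatal projection-like nuclei at 1254 ± 115 CPM (exact p = 0.000488 against DG-like nuclei, adjusted p = 0.0155). The log2 fold changes against other excitatory classes were 2.10 (edgeR adjusted p = 1.38e-44) in CA1-ProS-like and 1.75 in DG-like nuclei. L6 CT-like nuclei were at 97.7 ± 34.7 CPM, the lowest of any neuronal class (log2 fold change −2.90). Oligodendrocyte-like nuclei were at 19.9 ± 6.48 CPM. Microglia-like nuclei held 515 ± 297 CPM, called higher than other non-neuronal classes (log2 fold change 2.77, edgeR adjusted p = 1.98e-06). The excitatory list was at 217 CPM and the inhibitory list at 322 CPM in those nuclei, and the part of neuronal transcripts in that value was not tested.

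Epha7, a receptor known from corticothalamic mapping, was highest in DG-like nuclei at 589 ± 179 CPM (n = 12). The animals ran from 352 to 882 with a median of 609, and Car3-like nuclei at 308 ± 104 CPM came next (exact p = 0.00293, adjusted p = 0.0428). L6 CT-like nuclei came after them at 276 ± 45.2 CPM (log2 fold change 0.22 against other excitatory classes). L2/3 IT-gated nuclei were lowest of the excitatory classes at 139 ± 20.6 CPM (log2 fold change −1.05, SE 0.05, edgeR adjusted p = 1.20e-24). Oligodendrocyte-like nuclei held 11.1 ± 7.84 CPM.

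Epha8, whose gene lies on chromosome 4 (136929419 to 136956816) beside Ephb2, was near the limit of detection, with 194 UMIs in all nuclei. Of these, 55 came from striatal projection-like nuclei, at 9.57 ± 6.35 CPM (n = 12), from 0 to 18.6 with a median of 10.02. The next class was Car3-like at 3.18 ± 6.97 CPM (exact p = 0.0195, adjusted p = 0.161). Epha8 had 0 UMIs in astrocyte-like, oligodendrocyte-like, microglia-like and mural and fibroblast-like nuclei. A count of 0 over the animals allows up to 0.746 CPM in oligodendrocyte-like nuclei and up to 7.57 CPM in astrocyte-like nuclei (3 UMIs of the total, counting error only).

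Epha10, a receptor without an active kinase, was highest in the interneurons of the medial ganglionic eminence. Pvalb-like nuclei were at 151 ± 21.6 CPM (n = 12), from 120.0 to 203 with a median of 149.6, and Sst-like nuclei at 147 ± 23.4 CPM, which the exact test did not separate (p = 0.564, adjusted p = 0.957). Lamp5-like nuclei were next at 102 ± 24.0 CPM and lay below Sst-like nuclei (exact p = 0.000977, adjusted p = 0.0265). Among excitatory classes L4/5 IT-like nuclei led at 98.8 ± 34.6 CPM (log2 fold change 0.97). Cnr1-high, striatal projection-like and Vip-like nuclei were each called lower than the summed rest of the inhibitory group (log2 fold changes −1.77, −1.02 and −0.93), the latter pair being at 54.0 and 53.9 CPM.

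Ephb1, a receptor of ephrin-B ligands known from retinal axons that stay on their own side of the brain, was high in some glia and in 2 neuronal classes. Oligodendrocyte-like nuclei led with 789 ± 87.5 CPM (n = 12), from 679 to 989 with a median of 800.4, and a log2 fold change of 1.68 against other non-neuronal classes (SE 0.09, edgeR adjusted p = 3.37e-16). Microglia-like nuclei were second at 624 ± 189 CPM (exact p = 0.00684, adjusted p = 0.0812). That class carries oligodendrocyte transcripts, as given above, whose part in its Ephb1 level was not tested. OPC-like nuclei were at 101 ± 29.2 CPM, so the 2 oligodendrocyte lineage classes differed for Ephb1 in the opposite direction from Epha5.

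In neurons Ephb1 stood out in L6 CT-like nuclei at 593 ± 81.1 CPM, from 469 to 717 with a median of 606. The lowest of these animals lay above the highest animal of Car3-like nuclei (271 CPM), the next excitatory class by mean (196 ± 60.8 CPM), and CA1-ProS-like nuclei were the lowest excitatory class (56.2 ± 29.5 CPM). This gave a log2 fold change of 2.80 (SE 0.05, edgeR adjusted p = 6.78e-27). Striatal projection-like nuclei held 467 ± 69.2 CPM, from 333 to 593, against 13.04 ± 12.8 CPM in Vip-like and 16.4 ± 6.995 CPM in Sst-like nuclei. Their log2 fold change against the other inhibitory classes was 4.06 (SE 0.15, edgeR adjusted p = 6.88e-12). The striatal class held 2401 Ephb1 UMIs, against 113 in Pvalb-like, 82 in Sst-like and 223 in Lamp5-like nuclei.

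Ephb2, a receptor that acts with NMDA receptors at excitatory synapses, was also highest in L6 CT-like nuclei, at 142 ± 29.0 CPM (n = 12), from 101 to 183 with a median of 144. L5 NP-like nuclei followed at 101 ± 20.7 CPM (exact p = 0.000488, adjusted p = 0.0155). The log2 fold change of L6 CT-like nuclei against other excitatory classes was 1.02 (SE 0.05, edgeR adjusted p = 3.99e-24). Interneuron classes lay between 16.5 ± 8.17 CPM (Pvalb-like) and 49.0 ± 19.6 CPM (Cnr1-high), and astrocyte-like nuclei held 1 UMI in all.

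Ephb6, the other kinase-dead receptor, shared the layer pattern of Ephb2. L6 CT-like nuclei were at 31.2 ± 6.00 CPM (n = 12), from 20.3 to 41.0 with a median of 29.7, and L5 NP-like nuclei at 18.8 ± 8.04 CPM (exact p = 0.00146, adjusted p = 0.0309). Against other excitatory classes the first of these stood at a log2 fold change of 1.36 (SE 0.10, edgeR adjusted p = 1.05e-16). Over the 20 classes Ephb2 and Ephb6 correlated at a Pearson r of 0.74, a description over classes that share libraries and depth. Ephb6 had 0 UMIs in astrocyte-like nuclei, which allows up to 7.57 CPM.

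L6 CT-like nuclei thus joined the highest Ephb2 and Ephb6 and the highest neuronal Ephb1 with low Epha3, Epha4, Epha5 and Epha6, while Epha7 was slightly above the other excitatory classes. In that class 17.2% of all genes were called higher and 19.5% lower. All 3 EphB genes were called higher there. Of the EphA genes tested in that class, Epha7 was called higher, and Epha3, Epha4, Epha5, Epha6 and Epha10 were called lower (Epha10 log2 fold change −0.47).

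For each receptor the genes with the most similar class pattern were found by Pearson correlation of log2(mean CPM + 5) over the 20 classes, among genes with at least 20 CPM in some class. They were L1cam (r = 0.87), Apc2 and Ftx for Epha3, and Mast3 (0.85) and Cdc40 for Epha4. Epha5 was most like Sgsm1 (0.96), Csmd1 and Reep1, Epha6 most like Ripor2 (0.88), Zmym3 and Gria1, and Epha7 most like Prkce (0.92), Jph4 and Camk2a. For Epha10 these were Cacna1a (0.90), Nat8l and Cacng2, a calcium channel subunit and an AMPA receptor partner among them. Ephb1 had the least close matches, with Gm26660 (0.78), Inf2 and Fig4, and Ephb2 was most like Diras2 (0.88) and Ptchd1. Ephb6 was most like Vopp1 (0.87), Ccl27a and Rgs11, and Epha8 was below 20 CPM everywhere, so no search was made for it. All of these share libraries and depth, and 20 classes allow high values by selection among many genes.

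The ligands had their own pattern. Efna5, a lipid-anchored ephrin, was highest in L4/5 IT-like nuclei at 869 ± 122 CPM (n = 12), and Efnb3, a transmembrane ephrin, was highest in oligodendrocyte-like nuclei at 99.0 ± 24.0 CPM. Efnb2 was highest in striatal projection-like nuclei at 42.7 CPM. Efnb1 was highest in mural and fibroblast-like nuclei (23.4 CPM), Efna1 in oligodendrocyte-like nuclei (13.46 CPM), Efna2 in the same nuclei (8.36 CPM) and Efna3 in Zfp804b-high nuclei (6.27 CPM), while Efna4 had 18 UMIs in all nuclei. Of 47 ephrin and class combinations 11 were called higher (23.4%) and 16 lower (34.0%), against 16.5% and 17.8% of all genes. Of 368 combinations for 22 signalling partners of the receptors, such as Ngef, Chn1, Kalrn and Fyn, 91 were called higher (24.7%) and 104 lower (28.3%). The other receptors, Epha1, Epha2, Ephb3 and Ephb4, were low throughout, the highest mean of any being Ephb4 at 33.6 CPM in mural and fibroblast-like nuclei.

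The second question was whether the receptors differ between Het and WT cortex. Counts summed per animal and class were fitted with edgeR with genotype as the only term, as in the study's own model. From these samples the study lists Epha3, Epha5, Epha6 and Epha7 among its called genes that were higher in WT than in Het. The direction of those genes here is therefore not independent evidence. The study used DESeq2, clusters mapped to a brain atlas and more nuclei than were kept here, so its calls and the calls here are not alike. Of 123 receptor and class combinations tested, from 9 receptors, 1 was called higher in Het and 0 lower, against a background of 0.106% called over all genes and classes. Without adjustment 19 of 123 (15.4%) had p under 0.05, 6 higher and 13 lower, against 6.43% of all genes. Of the 19, Epha3 gave 5, Epha6 3, and Epha5 and Epha7 2 each, and the rest came from Epha4, Ephb1 and Ephb2. Most of the 19 are thus of genes the study had called in these animals, so the 15.4% is not independent evidence either. The median log2 fold change of the receptors was −0.10 over the 123 tests, and the class medians over all genes lay between −0.01 and 0.02.

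**Figure D2:**
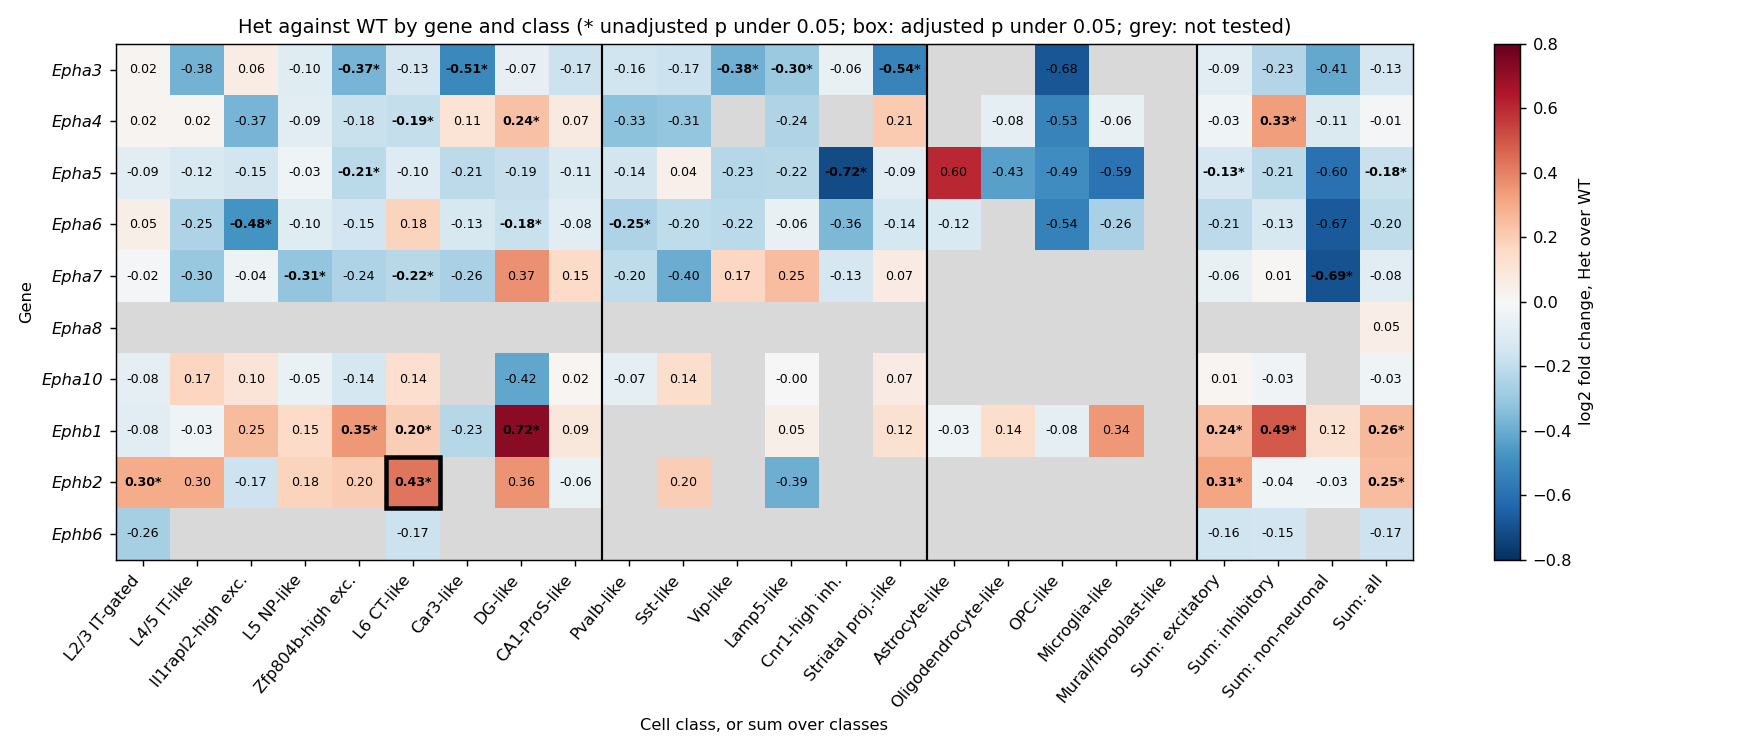
Log2 fold change of Het over WT (colour and printed value) for the 10 receptors (y axis) in 20 classes and 4 sums over classes (x axis), with grey where a gene was not tested, a star at an unadjusted edgeR p under 0.05 and a box at a call. The only box is Ephb2 in L6 CT-like nuclei (0.43), and Ephb1 is above 0 in 10 of 15 classes while Epha3, Epha5 and Epha6 are below 0 in 14 of 16, 17 of 19 and 16 of 18.

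The called difference was Ephb2 in L6 CT-like nuclei, the class with its highest level. In WT males Ephb2 was at 111, 147 and 114 CPM, and in WT females at 144, 103 and 101 CPM. In Het males it was at 174, 144 and 183 CPM, and in Het females at 174, 143 and 164 CPM. All 6 Het animals lay above the WT median and 4 of 6 above every WT animal, while WT male 2 and WT female 1 reached the lower Het values, so the groups overlapped. The means were 120 ± 20.5 CPM in WT and 164 ± 16.9 CPM in Het (SD, n = 6 each). EdgeR gave a log2 fold change of 0.43 (SE 0.10, a 1.34-fold difference, edgeR adjusted p = 0.0288), from 74 to 295 UMIs per animal. In that class 0.776% of all genes were called, 0.489% being called higher, and of 9 receptors 1 was. The share of L6 CT-like nuclei was 11.8% in the WT group and 12.6% in the Het group (two-sided exact permutation test, p = 0.227). That p does not show equal shares. From its own clusters at P21 the study reports more L6 CT neurons in Het than in WT cortex, and its clusters and nuclei differ from those here.

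The log2 fold change stayed between 0.38 and 0.49 when any animal was left out, but the adjusted p of edgeR rose above 0.05 without WT male 3 (0.0722), WT female 2 (0.0618), WT female 3 (0.123), Het male 1 (0.0513), Het male 3 (0.0756), Het female 1 (0.0900) or Het female 3 (0.0549).

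The log2 fold change of Ephb2 was above 0 in 7 of 10 classes and in 2 of 4 sums, and it passed the adjustment in no sum. It was furthest below 0 in Lamp5-like nuclei (−0.39, edgeR adjusted p = 0.948), where all 6 Het animals lay below the WT median, and was −0.04 in the inhibitory and −0.03 in the non-neuronal sum. Over all excitatory nuclei WT animals ran from 65.6 to 89.9 CPM with a median of 75.5, and Het animals from 86.1 to 104 with a median of 97.7. The log2 fold change was 0.31 (SE 0.07, edgeR adjusted p = 0.0929), with 4 of 6 Het animals above all WT animals. DESeq2 called it (adjusted p = 0.0207). In a sum over classes a different share of a cell type and a different amount of RNA per cell cannot be told apart. Over all nuclei the WT median was 59.4 CPM and the Het median 72.1 CPM (log2 fold change 0.25, edgeR adjusted p = 0.244). In L2/3 IT-gated nuclei the difference was 0.30 (edgeR adjusted p = 0.649), with a median of 65.9 CPM in WT and 84.3 CPM in Het animals.

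**Figure D3:**
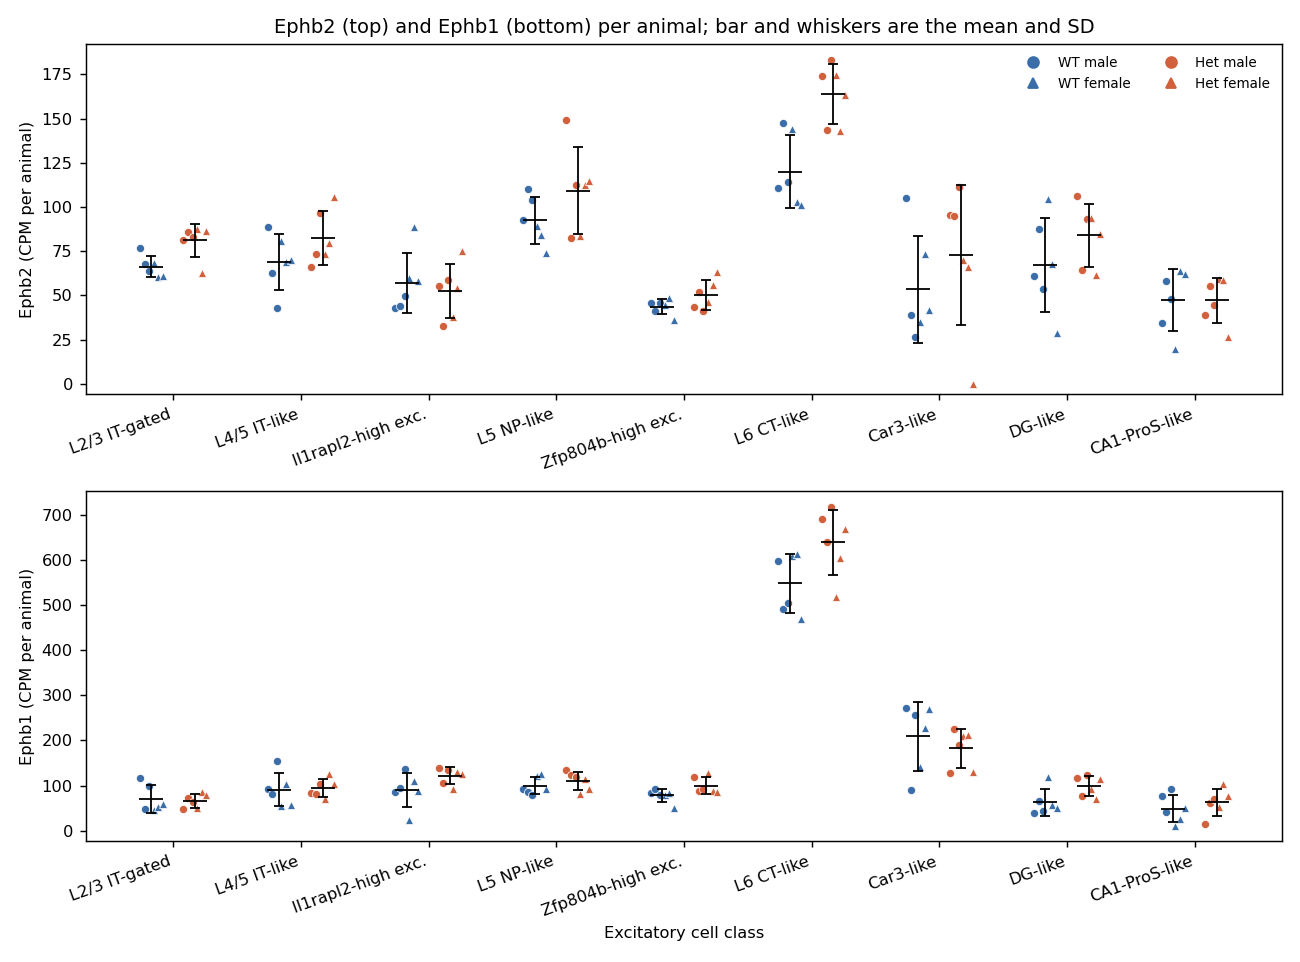
Ephb2 (top) and Ephb1 (bottom) in CPM (y axes, linear) for each animal in the 9 excitatory classes (x axis), with WT in blue, Het in orange, males as circles, females as triangles and bars for the mean and SD. In L6 CT-like nuclei the Het animals reach 143 to 183 CPM for Ephb2 against 101 to 147 in WT, and for Ephb1 the groups overlap from 517 to 613 CPM.

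Ephb1 was above 0 in 10 of 15 classes and in 4 of 4 sums, and no class passed the adjustment with the count filter used. In DG-like nuclei WT animals ran from 38.7 to 119 CPM with a median of 54.4, and Het animals from 70.3 to 125 with a median of 104. All 6 Het animals were above the WT median, and only WT female 1, at 119 CPM, overlapped them. This was a log2 fold change of 0.72 (SE 0.21, edgeR adjusted p = 0.202). With no count filter the adjusted p of edgeR was 0.00981, and with looser nucleus limits the difference was 0.45 (edgeR adjusted p = 0.461). The looser limits applied neither the upper limits on UMI and gene numbers nor the limit on log genes over log UMIs. They left 74784 nuclei over all classes, against 33118 in the main setting. In L6 CT-like nuclei, where Ephb1 is most abundant among neurons, the medians were 551 CPM in WT and 653 CPM in Het (log2 fold change 0.20, edgeR adjusted p = 0.340, and 0.13 with the looser limits). In Zfp804b-high nuclei they were 81.8 and 91.0 CPM (0.35, edgeR adjusted p = 0.878), a difference that was 0.13 with the looser limits and 0.20 at the stricter class probability. Over all excitatory nuclei Ephb1 was at a median of 172 CPM in WT and 213 CPM in Het (0.24, edgeR adjusted p = 0.304, 0.00859 with no count filter), and the difference was 0.14 with the looser limits (adjusted p = 0.626). Over all nuclei the difference was 0.26 (edgeR adjusted p = 0.578).

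The 4 sums over classes, tested for all 10 receptors in 35 combinations, gave 0 calls by edgeR against a background of 0.11%. Without adjustment 9 of 35 (25.7%) had an edgeR p under 0.05. The sum over all nuclei contains the excitatory, inhibitory and non-neuronal sums, so the 9 are not separate results. The share of all genes under that limit is not given here for the sums, so the 9 cannot be read against a background. DESeq2 gave 1 call, Ephb2 in excitatory nuclei. Ephb1 and Epha4 had the largest positive differences in the inhibitory sum. For Ephb1 the WT animals ran from 64.1 to 132 CPM (median 103) and the Het animals from 111 to 165 (median 140), a log2 fold change of 0.49 (SE 0.14, edgeR adjusted p = 0.246). For Epha4 they ran from 78.4 to 101 CPM (median 92.6) and from 90.4 to 149.9 (median 113), a log2 fold change of 0.33 (SE 0.10, edgeR adjusted p = 0.206). With no count filter edgeR called both (adjusted p = 4.09e-06 for Ephb1 and 0.0128 for Epha4), and it called Ephb1 without WT female 2 (adjusted p = 0.0372).

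Both genes are highest among inhibitory classes in striatal projection-like nuclei. The study reports a larger proportion of DARPP32-positive striatal neurons in Het cortex at P21, from its own clusters, and counted more such cells by staining of brain sections. Here the share of striatal projection-like nuclei among all nuclei was 3.73% ± 1.27 in WT, from 2.61% to 5.75%. It was 5.77% ± 0.81 in Het animals, from 4.16% to 6.39%, so the ranges overlapped (exact permutation p = 0.0130, two-sided, adjusted p = 0.338 over 26 shares). With 6 animals per genotype a single share could not reach an adjusted p under 0.05 over 26 shares, however far apart the groups lay. The adjusted p of this share therefore decides nothing about a difference between genotypes. With the striatal class left out of the inhibitory sum, a comparison chosen after seeing the data, Ephb1 was at a median of 41.0 CPM in WT and 34.4 CPM in Het animals (log2 fold change −0.084, SE 0.20). Epha4 was at −0.077 (SE 0.13), and the adjusted p of edgeR was 1.00 for both. Within striatal projection-like nuclei the differences were 0.12 for Ephb1 (edgeR adjusted p = 0.943) and 0.21 for Epha4 (0.929). The part of this share in the differences of the inhibitory sum was not tested.

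**Figure D4:**
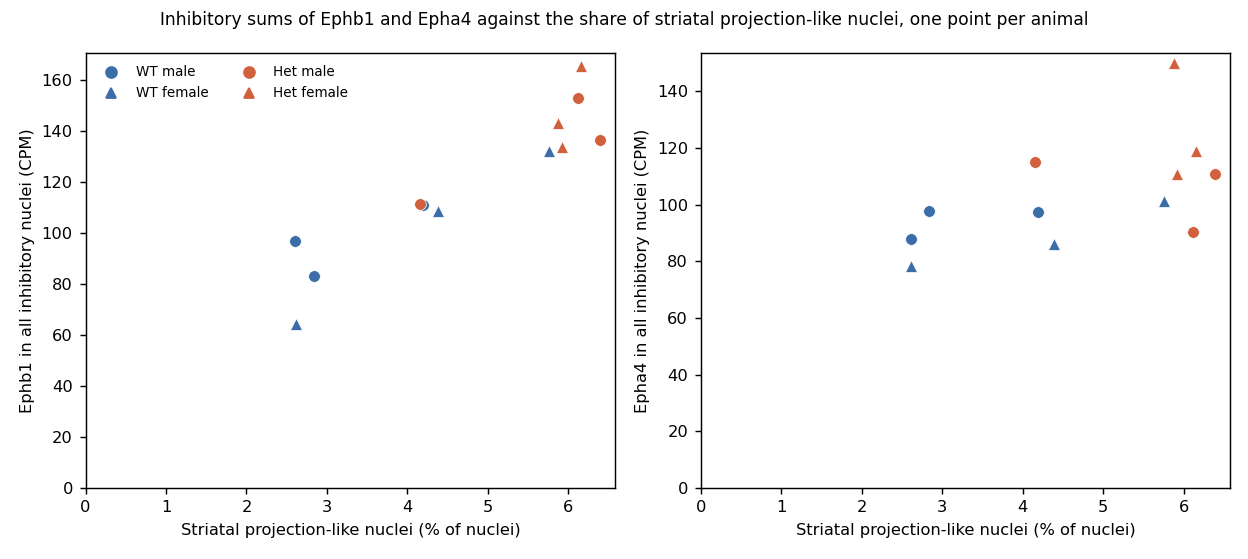
Ephb1 (left) and Epha4 (right) in CPM summed over all inhibitory nuclei (y axes, linear) against the share of striatal projection-like nuclei among all nuclei in percent (x axes), with a point for each of the 12 animals. Het animals lie between 4.16% and 6.39% and WT animals between 2.61% and 5.75%, and the ranges overlap.

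The EphA receptors that the study called higher in WT lay mostly below WT in Het animals here too, and none passed the adjustment in any class. The classes, the test and the number of nuclei differ from the study's. Epha3 was lower in 14 of 16 classes, with unadjusted p under 0.05 in 5. In striatal projection-like nuclei the WT animals ran from 97.6 to 217 CPM (median 142) and the Het animals from 67.2 to 140.4 (median 96.4). EdgeR put this at −0.54 (SE 0.17, edgeR adjusted p = 0.684), and all 6 Het animals lay below the WT median. The others were Car3-like (−0.51), Vip-like (−0.38), Zfp804b-high (−0.37) and Lamp5-like nuclei (−0.30), the last being the class where Epha3 is highest. With the looser nucleus limits these were −0.034 in Car3-like, −0.20 in Vip-like and −0.16 in Lamp5-like nuclei.

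Epha5 was lower in 17 of 19 classes. Its widest gap was in Cnr1-high inhibitory nuclei, with WT animals from 548 to 898 CPM (median 706) and Het animals from 365 to 579 (median 427). The difference was −0.72 on the log2 scale (SE 0.17, edgeR adjusted p = 0.199), with all 6 Het animals below the WT median and the ranges touching between 548 and 579 CPM. With the looser nucleus limits it was −0.37 (edgeR adjusted p = 0.761). In Zfp804b-high nuclei the difference was −0.21 (edgeR adjusted p = 0.878), and −0.11 with those limits and −0.14 at the stricter class probability. Over all excitatory nuclei the difference was −0.13 (SE 0.05, edgeR adjusted p = 0.490), and over all nuclei −0.18 (SE 0.09, edgeR adjusted p = 0.832).

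Epha6 was lower in 16 of 18 classes. In Il1rapl2-high excitatory nuclei WT animals ran from 1120 to 1788 CPM (median 1197) and Het animals from 554 to 1205 (median 993), a log2 fold change of −0.48 (SE 0.15, edgeR adjusted p = 0.803), and −0.31 with the looser limits. In Pvalb-like nuclei the difference was −0.25 and in DG-like nuclei −0.18. In CA1-ProS-like nuclei, where it is highest, no unadjusted p was under 0.05.

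Epha7 was lower in 10 of 15 classes, with differences of −0.31 in L5 NP-like and −0.22 in L6 CT-like nuclei (edgeR adjusted p = 0.713 and 0.430). The former was −0.19 without WT male 1. Over all non-neuronal nuclei WT animals ran from 24.2 to 85.2 CPM (median 38.1) and Het animals from 15.7 to 37.7 (median 25.3), a difference of −0.69 (SE 0.28, edgeR adjusted p = 1.00), with WT female 3 far above the other WT animals and a difference of −0.44 without it. Epha4 was mixed, at 0.24 in DG-like and −0.19 in L6 CT-like nuclei (edgeR adjusted p = 0.454 and 0.453), the latter being −0.11 with the looser limits. Epha10 was above 0 in 6 of 12 classes, and no class had an unadjusted p under 0.05. Ephb6 passed the filter in 2 classes, L2/3 IT-gated (−0.26) and L6 CT-like nuclei (−0.17), and Epha8 only in the sum over all nuclei (0.05). Neither had an unadjusted p under 0.05.

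Set side by side, the EphB genes were above 0 in 17 of 27 class tests, with a median log2 fold change of 0.14, and the EphA genes were below 0 in 73 of 96, with a median of −0.14. Of the 19 class tests with an unadjusted p under 0.05, the 5 of EphB genes were all higher in Het, and of the 14 of EphA genes 13 were lower and 1 was higher. The tests of a subfamily share nuclei and animals, and the members were chosen with earlier results known, so these counts carry no test.

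Among the ligands Efna5 had 15 class tests with 0 calls and 5 with an unadjusted p under 0.05, all lower in Het. The lowest of these in p was in striatal projection-like nuclei (log2 fold change −0.75, edgeR adjusted p = 0.141). The 3 ephrins tested in classes gave 25 tests and 0 calls by edgeR. The signalling partners gave 260 class tests of 21 genes with 0 calls. Of these 16 (6.15%) had an unadjusted p under 0.05, 13 higher and 3 lower, a share near the 6.43% of all genes.

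The difference between sexes in the genotype effect was tested with an interaction term. EdgeR called 0 receptors, against a background of 0.0299% over all genes, classes and sums. Epha6 in L2/3 IT-gated nuclei came closest. WT males were at 553, 311 and 596 CPM and Het males at 308, 377 and 336 CPM, while WT females were at 182, 185 and 274 CPM and Het females at 372, 476 and 357 CPM. The 3 Het females lay above all WT females, and the males overlapped. The interaction was 1.496 (SE 0.39, edgeR adjusted p = 0.258), and DESeq2 gave 1.54 with an adjusted p of 0.0203.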

How the data were processed

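The deposited matrices hold expected counts, UMIs per gene and barcode that the authors made with the ScaleRna workflow on mm10 (92.624% of entries are whole). Per the study's methods, nuclei were fixed, kept frozen until every sample was ready, and then barcoded with the Scale Biosciences kit in a single batch for this age. Whether the animals were fixed at the same time is not given. Per the submitters' processing notes Seurat 4.3.0 and DESeq2 1.38.3 were used. The 78743 deposited barcodes are fewer than the nuclei stated by the study after its filters.

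Barcodes were kept with UMIs between 800 and 6000, genes between 300 and 3000, mitochondrial reads no higher than 1%, and log genes divided by log UMIs no lower than 0.9, which 34862 met. Within each animal the top 5% by Scrublet score (1744 in all, scanpy 1.11.5) were removed, leaving 33118, with median UMIs of 2970 to 3396 per animal. The looser nucleus filters left 74784 nuclei after removal of the same percent by score. Most barcodes were therefore dropped by the upper limits on UMIs and genes or by the ratio limit. The main values rest on the nuclei within those limits. Nuclei were assigned to a class at a probability of at least 0.9 under a multinomial model of marker counts, and 491 had no broad group and 6300 no class. The parameters were set after marker levels were seen. Counts were summed per animal and class with at least 10 nuclei, rounded, and tested with edgeR 4.0.16 (TMM, filterByExpr, robust quasi-likelihood fit; R 4.3.3) where at least 3 animals per genotype had a value. The SE printed with an edgeR log2 fold change is its absolute value divided by the square root of the F statistic of the test. Exact tests used scipy 1.17.1. On simulated counts with known changes the test was checked. Alternatives were DESeq2 1.42.0, no count filter, looser nucleus filters, no doublet removal, a class probability of 0.99, sex as a covariate, a replicate block, WT animals alone and each animal left out. All 10 receptors were described in every class, with Het/WT values named at a call or an unadjusted p under 0.05. The receptors and lists were chosen with earlier results of these data known. Each animal is a separate mouse. Promoters came from RefSeq and positions from GENCODE on mm10. Counting intervals and limits cover counting error only. Some of the genes most like a receptor in class pattern are not reported here.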

Additional observations from a re-analysis of the deposited data

Results flagged for a closer look

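In 70 sets of 6 animals of a genotype, Dixon's test at its limit of 0.625 found 5 values far from the others of their set, where chance gives about 1 in 20. They came from 3 animals, with 2 each from WT female 1 and WT female 3. Ephb2 in L2/3 IT-gated nuclei of Het female 2 was at 62.5 CPM, against 81.2 to 87.7 in the other Het animals. Ephb1 in Zfp804b-high nuclei of WT female 3 was at 51.4 CPM, against 78.4 to 93.1. Epha3 in Car3-like nuclei of WT female 1 was at 473.9 CPM, against 231 to 301. Ephb1 in DG-like nuclei of WT female 1 was at 119 CPM, against 38.7 to 66.6. Epha7 over non-neuronal nuclei of WT female 3 was at 85.2 CPM, against 24.2 to 44.3.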

How the results depend on the processing

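Over 28 named genotype differences the alternatives kept direction and side of the threshold in 508 cases, lost the call in 7, gained one in 8 and turned the sign of 0. Only Ephb2 in L6 CT-like nuclei was a call in the main setting, so most of the 508 are uncalled differences that stayed uncalled. All 7 losses were of that call, each with an animal left out. A kept case can also differ in size, as Epha3 in Car3-like nuclei did, at −0.51 in the main setting and −0.034 with the looser limits. The count of class calls was 1 and became 2 with no count filter (Ephb1 in DG-like nuclei added) and 2 without the upper and ratio limits (Ephb2 in L4/5 IT-like nuclei added), and 0 to 1 with an animal left out. Over the sums it was 0, and became 1 with DESeq2, 4 with no count filter (Ephb1 and Ephb2 in excitatory, Ephb1 and Epha4 in inhibitory nuclei), and 0 to 1 with an animal left out (1 without WT female 1 and without WT female 2). Calls of a class against the rest numbered 116, and 112 to 118 with an animal left out. In the order of classes 36 neighbouring pairs had an exact p under 0.05, and 10 in WT animals alone. The 6 WT animals allow no exact p under 0.03125, so these counts are not alike. Genotype by sex gave 1 call with DESeq2. With the striatal class left out, chosen after seeing the data, the inhibitory differences were −0.077 (SE 0.126) for Epha4 and −0.084 (SE 0.202) for Ephb1, each under 1 SE from 0. With no count filter more genes of few counts enter the fit. The replicate numbers did not pair the animals (correlations of same-numbered deviations in excitatory nuclei from −0.24 to 0.20), and with the replicate block edgeR kept 1 class call, Ephb2 in L6 CT-like nuclei (adjusted p = 0.0448), and 0 over the sums.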
